A study of Rattus norvegicus with 47 samples.

Results

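Bile acids are made from cholesterol in the liver by a chain of enzymes, and 8 genes of that chain were followed in rat liver under different supplies of vitamin A and its acid form, retinoic acid (RA). The genes are Cyp7a1, Cyp8b1, Cyp27a1, Cyp7b1, Akr1d1, Hsd3b7, Slc27a5 and Baat. They were taken by their symbol on the array, as probe sets that carry that symbol alone, and make up 8 of the 14217 named genes measured. Each gene is given by its probe set with the highest mean, and Akr1d1 has a second one, so 9 probe sets were read. All 8 genes passed the filter on low values in each of the 3 experiments.

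Liver RNA of 1 female Sprague-Dawley rat, 8 weeks old, was hybridised to each of 47 single-colour Affymetrix arrays, in 13 groups. In the diet experiment, pups of dams on a vitamin A-deficient purified AIN-93G diet ate it from weaning with a set amount of retinol per kg. The 5 deficient rats had 0 mg, the 7 marginal rats 0.4 mg, the 6 adequate rats 4 mg and the 2 supplemented rats 100 mg. In the RA time course, every rat was vitamin A-deficient by its label, controls included. The 3 controls received vehicle and were killed at 0 h. Livers of rats dosed with all-trans-RA (about 100 µg, route not given in the labels) were taken at 3 h, 6 h and 16 h from 3 rats each and at 10 h from 4. In the intravenous experiment, rats on a stock diet received an oil and ethanol vehicle, lost access to food, and 16 h later were injected under isoflurane into the left common iliac vein. The 2 controls, killed at 0 min, got vehicle. The dose of all-trans-RA was near 25 µg, bound to albumin (10 µg per 100 g of body weight), and 3 livers each were taken at 30, 60 and 90 min. Controls of both RA experiments are untreated by title and vehicle-treated by the treatment text. Controls were killed only at time 0, so RA, the time since the injection and the hour of the day cannot be told apart.

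The classical route of bile acid synthesis starts with Cyp7a1, the rate-limiting cholesterol 7α-hydroxylase, and the acidic route starts with Cyp27a1, the mitochondrial sterol 27-hydroxylase, followed by the oxysterol 7α-hydroxylase Cyp7b1. Hsd3b7 and Akr1d1 then reshape the sterol rings, Cyp8b1 adds the 12α-hydroxyl group that sets the share of cholic acid, and Slc27a5 and Baat activate bile acids and join them to glycine or taurine. Bile acids restrain the pathway through the receptor FXR (Nr1h4), which induces the repressor SHP (Nr0b2), and Cyp7a1 is known for a daily rhythm in rodent liver.

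Values are log2 signals relative to the median of the array, which is 0. A difference of 1 is a 2-fold change. Differences are given with their standard error (SE) from the limma fit, a call is a Benjamini-Hochberg adjusted p under 0.05 over all probe sets of the experiment, and probe sets of different genes are not compared in level. Fewer cells of a type and less RNA per cell cannot be told apart in RNA of whole liver.

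Promoter sequences from RefSeq (build GRCr8), 250 bases before to 50 after the gene start, were matched for 5 of the 8 genes: Cyp8b1, Cyp27a1, Hsd3b7, Slc27a5 and Baat. A pair of them is shown. One is of the gene with the largest change from vehicle in the RA time course, and one of a gene that was called in none of the comparisons. Capitals mark every match, on either strand, to AGGTCA, the half-site of many nuclear receptors, or to CAAGGTC, a core recognised by the receptor NR5A2. The last 5 letters of the second motif are the first 5 of the other, so matches can overlap. The Cyp8b1 promoter is at chr8:130457543-130457842 on the minus strand and the Cyp27a1 promoter at chr9:83713282-83713581 on the plus strand.
Cyp8b1: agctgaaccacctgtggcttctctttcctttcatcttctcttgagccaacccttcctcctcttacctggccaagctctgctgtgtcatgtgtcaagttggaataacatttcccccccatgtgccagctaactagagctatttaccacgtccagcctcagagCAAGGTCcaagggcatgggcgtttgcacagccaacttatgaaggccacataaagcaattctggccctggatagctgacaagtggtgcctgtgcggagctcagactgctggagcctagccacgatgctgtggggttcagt
Cyp27a1: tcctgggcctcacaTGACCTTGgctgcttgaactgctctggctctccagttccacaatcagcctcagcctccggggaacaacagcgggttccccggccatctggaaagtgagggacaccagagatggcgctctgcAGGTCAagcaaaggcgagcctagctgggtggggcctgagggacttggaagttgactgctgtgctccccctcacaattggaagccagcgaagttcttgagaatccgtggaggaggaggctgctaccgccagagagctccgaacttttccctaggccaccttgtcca
In Cyp8b1, CAAGGTC was found from base -89 to base -83 relative to the first base of the gene, and AGGTCA was not in this window. In Cyp27a1, AGGTCA was found at -115 to -110 and, on the opposite strand, at -236 to -231, where it overlapped CAAGGTC. Hsd3b7, Slc27a5 and Baat held neither motif in the same window. Of 33469 promoters of 300 bases, 16.2% held AGGTCA and 4.2% held CAAGGTC, which is in both promoters shown. A match is a description of the letters and not a site.

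One control array of the time course went against its label. The library labelled vehicle replicate 2 read 7.11 for Cyp2c22 and 2.62 for Lrat, both RA-inducible liver genes, while the other two vehicle arrays read 2.54 and 2.83, and -0.39 and -4.18. In the diet experiment deficient livers ran from 0.67 to 3.86 for Cyp2c22 and from -3.32 to 0.10 for Lrat, and adequate livers from 6.45 to 7.21 and from 1.68 to 2.03, so this library lay in or above the adequate range. Its Cyp26a1, the RA-degrading enzyme, read -1.14 against -0.89 and -4.73. Results against vehicle are given with it and, where members were called at a single time, without it.

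The time course asked how RA acts on the liver of rats labelled deficient, and among the 8 genes it was the 12α-hydroxylase gene Cyp8b1 that fell at 6, 10 and 16 h, with its lowest level at 10 h. Cyp7a1, the first enzyme of the classical route, was called lower at 10 h, a call that was lost without the only high vehicle array (adjusted p = 0.51), and was higher at 16 h than at 10 h. Akr1d1, the 5β-reductase, was lower at 16 h. Cyp27a1, Cyp7b1, Hsd3b7, Slc27a5 and Baat were not called at any time against vehicle. In the order of the times, 0, 1, 2 and 2 of the 8 genes were called, all of them lower, while 0.0762% of all probe sets were called at 3 h, 0.201% at 6 h, 0.488% at 10 h and 6.11% at 16 h. At 3 h, 2 of the 8 (Cyp8b1 and Cyp7b1) had an unadjusted limma p under 0.05. By that p they ranked 649 and 747 among 28869 probe sets. The counts were 1 at 6 h, 2 at 10 h and 5 at 16 h. Those 5 were Cyp7a1, which was higher, and Cyp8b1, Akr1d1, Hsd3b7 and Slc27a5, which were lower, with ranks from 361 to 3956. The shares above are of adjusted calls and are no measure for these counts.

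**Figure D1:**
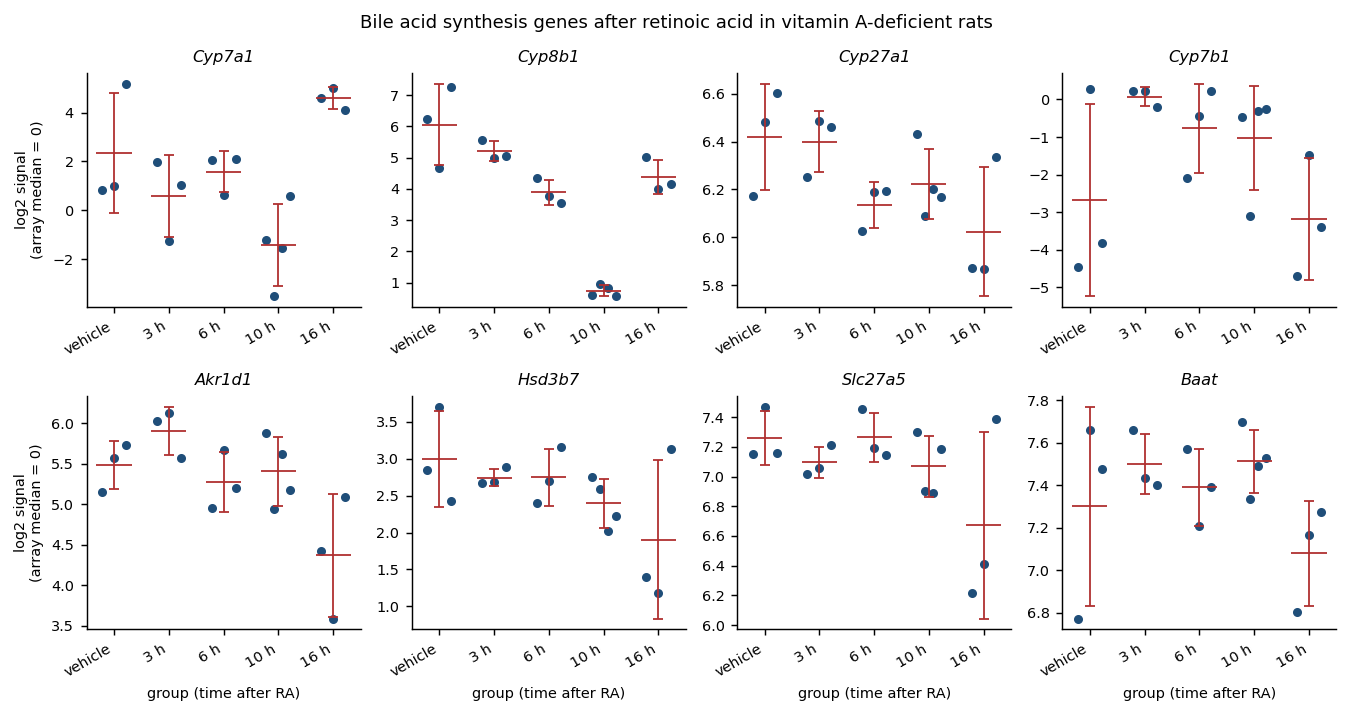
Log2 signal (array median 0) of the 8 genes on each array of the RA time course, by group, with points for arrays and red bars for the mean ± SD. Cyp8b1 sits between 0.58 and 0.94 on the 4 arrays at 10 h, and Cyp7a1 between 4.12 and 5.03 on the 3 arrays at 16 h.

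Cyp8b1 read 6.24, 4.67 and 7.26 in vehicle livers, 5.57, 4.99 and 5.06 at 3 h, and 4.33, 3.77 and 3.55 at 6 h. It then read 0.62, 0.94, 0.83 and 0.58 at 10 h and 5.01, 4.00 and 4.15 at 16 h. Every array at 6 h and at 10 h was below every vehicle array, and the 4 arrays at 10 h were below all others of the experiment by more than their own spread. At 16 h, 1 array overlapped the lowest vehicle array.

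At 10 h Cyp8b1 was 39.7-fold below vehicle, a log2 change of -5.31 ± 0.36 (adjusted p = 9.27e-11), and ranked 1 by p among 28869 probe sets. The call was made in 14 of 14 alternative analyses, with changes from -6.01 to -4.71 and adjusted p from 2.54e-14 to 0.00256. The change was -0.85 ± 0.38 at 3 h (adjusted p = 1), -2.17 ± 0.38 at 6 h (adjusted p = 0.0055) and -1.67 ± 0.38 at 16 h (adjusted p = 0.0114). Over the 4 times together it was -2.50 ± 0.30 (adjusted p = 4.5e-05), in a comparison that called 0.17% of probe sets.

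The steps between neighbouring times, compared after the data were seen, placed the fall and the recovery of Cyp8b1. From 3 h to 6 h it changed by -1.32 ± 0.38 (adjusted p = 0.761), where all 3 later arrays were lower and 0.0208% of probe sets were called. From 6 h to 10 h the change was -3.14 ± 0.36 (adjusted p = 2.03e-05, with 0.135% of probe sets called). From 10 h to 16 h it rose by 3.64 ± 0.36 (adjusted p = 1.03e-06), 12.5-fold, with 0.807% of probe sets called, and it ranked 1 by p in both of the last steps. In falling order the group means were vehicle 6.05, 3 h 5.21, 16 h 4.39, 6 h 3.88 and 10 h 0.74. In the fit of all arrays, neither 3 h against vehicle nor 16 h against 3 h (-0.82 ± 0.38, adjusted p = 0.187) was called. The unadjusted limma p of these differences were 0.0343 and 0.0401. Arrays overlapped in both pairs, although 2 of the 3 arrays at 16 h were below all arrays at 3 h. The arrays at 16 h and 6 h also overlapped.

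Single vehicle arrays moved these values. Replicate 2 had the lowest Cyp8b1 of the vehicle arrays. Without it the 3 h change of Cyp8b1 was -1.54 ± 0.32 and was called (adjusted p = 0.0366), and the later ones were -2.86 ± 0.32 at 6 h (adjusted p = 4.16e-06), -6.01 ± 0.30 at 10 h (adjusted p = 3.82e-14) and -2.36 ± 0.32 at 16 h (adjusted p = 1.77e-04). The count of all probe sets called at 16 h was 215 without it and 1765 with it. Without vehicle replicate 3, the highest, the 6 h and 16 h changes of -1.57 ± 0.36 (adjusted p = 0.106) and -1.06 ± 0.36 (adjusted p = 0.141) were not called. Leaving out replicate 3 of the 6 h group gave -2.0 ± 0.43 (adjusted p = 0.0641).

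Cyp7a1 read 0.85, 0.99 and 5.18 in vehicle livers, 1.97, -1.26 and 1.05 at 3 h, and 2.04, 0.61 and 2.09 at 6 h. At 10 h it read -1.23, -3.51, -1.56 and 0.58, and at 16 h 4.62, 5.03 and 4.12. Vehicle replicate 3 alone stood with the 16 h arrays, and all 4 arrays at 10 h were below every vehicle array.

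The change of Cyp7a1 at 10 h was -3.77 ± 0.82 (adjusted p = 0.0246). Without vehicle replicate 2 it was -4.44 ± 0.90 (adjusted p = 0.0129). It rested partly on other single arrays, with adjusted p = 0.142 without 10 h replicate 2, 0.0797 without 10 h replicate 3, and 0.51 without vehicle replicate 3, where the change was -2.35 ± 0.77. The changes at 3 h (-1.75 ± 0.87, adjusted p = 1), 6 h (-0.76 ± 0.87, adjusted p = 1) and 16 h (2.25 ± 0.87, adjusted p = 0.121) were not called, although without vehicle replicate 3 the 16 h change was 3.67 ± 0.82 (adjusted p = 0.0292).

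The size of the rise of Cyp7a1 between treated groups did not use the vehicle arrays, although its SE was pooled over all 16 arrays, vehicle included. From 10 h to 16 h it rose by 6.02 ± 0.82 (adjusted p = 1.41e-04), and all 3 arrays at 16 h were above all 4 at 10 h. That value is uncertain, since Cyp7a1 was dim at 10 h, at 4.34, 2.23, 4.15 and 6.27 above the floor of the array on the log2 scale. From 3 h to 16 h it rose by 4.00 ± 0.87 (adjusted p = 0.00535), one of the 2 genes of the pathway called where 8.7% of probe sets were. From 6 h to 10 h it changed by -3.01 ± 0.82 (adjusted p = 0.211), with all 4 later arrays lower.

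Akr1d1, whose product saturates the sterol A ring, read 5.15, 5.57 and 5.73 in vehicle livers and 4.42, 3.58 and 5.09 at 16 h. All 3 arrays at 16 h were below all vehicle arrays. The change was -1.12 ± 0.29 (adjusted p = 0.0214), and from 3 h to 16 h it was -1.54 ± 0.29 (adjusted p = 0.00181). The second Akr1d1 probe set changed by -0.84 ± 0.29 at 16 h against vehicle (adjusted p = 0.082).

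The 16 h group held arrays that stood apart. Replicates 1 and 2 had the lowest median correlations with the other arrays of the experiment, 0.676 and 0.726, against up to 0.814. They were also lower than replicate 3 in RA-inducible genes. Cyp26a1 read 0.38 and -2.71 against 4.16, Lrat 1.55 and 1.14 against 3.41, and Cyp2c22 7.4 and 7.5 against 8.7. The part of either difference in the 16 h changes was not tested. Over all probe sets tested, the median change at 16 h was -0.39. Relative to that shift the Akr1d1 and Cyp8b1 changes are smaller by that amount. After quantile normalization, which removes the shift, Akr1d1 changed by -0.51 ± 0.23 (adjusted p = 0.32) and Cyp8b1 by -1.11 ± 0.43 (adjusted p = 0.233).

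The Akr1d1 call at 16 h was lost without 16 h replicate 1 (-1.15 ± 0.32, adjusted p = 0.0586), 16 h replicate 2 (-0.73 ± 0.29, adjusted p = 0.15), vehicle replicate 2 (-1.07 ± 0.33, adjusted p = 0.107) or vehicle replicate 3 (-0.99 ± 0.33, adjusted p = 0.13). With replicates 1 and 2 of the 16 h group both left out it changed by -0.39 ± 0.33 (adjusted p = 0.793). Cyp8b1 without that pair changed by -1.90 ± 0.51 (adjusted p = 0.0973), and Cyp7a1 from 3 h to 16 h by 3.53 ± 1.30 (adjusted p = 0.303). Without 16 h replicate 3, by contrast, 5 of the 8 genes were called lower at 16 h: Cyp8b1, Akr1d1, Cyp27a1 (-0.55 ± 0.19), Hsd3b7 (-1.71 ± 0.35) and Slc27a5 (-0.95 ± 0.19). That fit called 4498 of 28869 probe sets, against 1765 with all arrays. Its 16 h group was replicates 1 and 2 alone, the arrays that stood apart, so the 5 calls are not particular to the pathway.

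The other genes of the pathway were not called against vehicle in the fit of all arrays. Cyp27a1 lay between 5.87 and 6.60 and Baat, the conjugating enzyme, between 6.77 and 7.70 on the 16 arrays, with changes against vehicle from -0.39 to 0.21. The coenzyme A ligase gene Slc27a5 lay between 6.22 and 7.47, and the dehydrogenase gene Hsd3b7 between 1.18 and 3.71. For both of these the lowest 2 arrays were replicates 1 and 2 at 16 h, where Hsd3b7 read 1.40 and 1.18 against 3.14 on the third array. Cyp7b1 was dim and variable, at -4.45, 0.26 and -3.83 in vehicle livers, and its change of 2.75 ± 1.28 at 3 h was not called (adjusted p = 1).

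**Figure D2:**
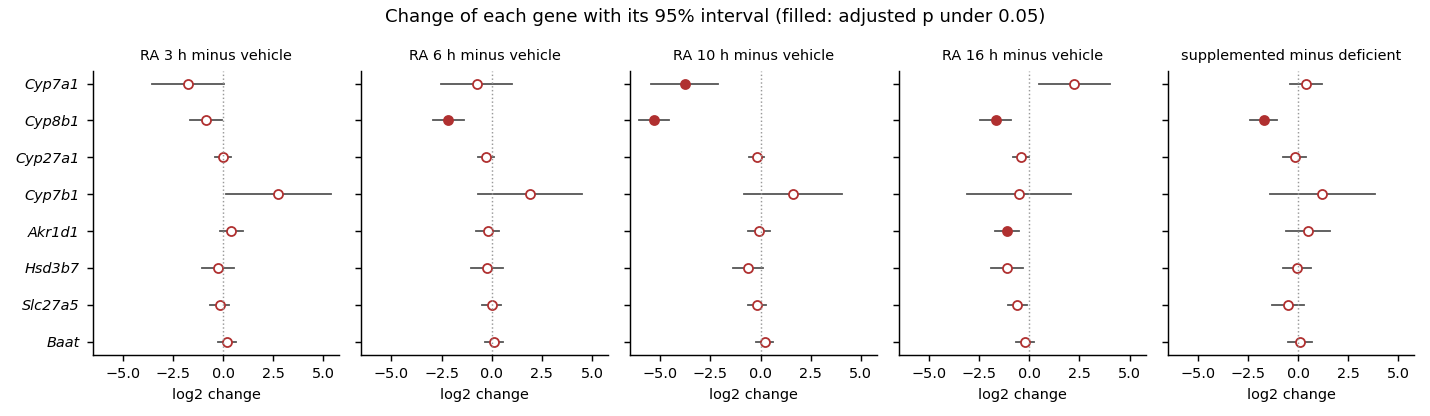
Log2 change of each gene (points) with its 95% interval (lines) for the 4 RA times against vehicle and for supplemented against deficient livers, with filled points for adjusted p under 0.05. The interval of Cyp8b1 at 10 h, -6.04 to -4.58, is apart from those of the other 3 times.

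The genes that surround the pathway were taken from lists of regulators, bile acid transporters, other synthesis genes, RA response genes and clock genes. Nr0b2, which encodes SHP, a repressor of Cyp7a1 and Cyp8b1, read 1.10, 3.48 and 2.23 in vehicle livers, 4.97, 4.65 and 5.25 at 3 h, and 5.50, 4.32 and 5.29 at 6 h. It was back at 1.66, 2.06, 1.21 and 1.64 at 10 h, when Cyp8b1 was lowest. Its rises of 2.69 ± 0.42 at 3 h (adjusted p = 0.0024) and 2.77 ± 0.42 at 6 h (adjusted p = 8.45e-04) were called, as was the fall of 3.39 ± 0.39 from 6 h to 10 h (adjusted p = 2.03e-05). The FXR gene Nr1h4 was not called at any of these times. The part of Nr0b2 in the Cyp8b1 and Cyp7a1 changes was not tested.

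Of 15 regulators tested, only Nr0b2 was called at 3 h, and at 6 h Nr0b2 rose and Onecut1, a hepatocyte transcription factor, fell by 2.18 ± 0.41 (adjusted p = 0.0108). None was called at 10 h. At 16 h, 0 were higher and 4 lower: Foxa2, Nr1h3 (LXRα), Fgfr4 and Onecut1. From 10 h to 16 h, Hnf4a, an activator of bile acid genes, rose by 0.98 ± 0.25 (adjusted p = 0.049) and Foxa2 fell.

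None of 14 other bile acid synthesis genes was called at 3, 6 or 10 h. At 16 h, 3 were lower: the peroxisomal genes Slc27a2 (-1.13 ± 0.21) and Acox2 (-1.16 ± 0.35), and Cyp39a1 (-0.92 ± 0.28), a 24-hydroxycholesterol 7α-hydroxylase. Of 14 transport genes, Abcc2 fell at 10 h (-1.17 ± 0.22, adjusted p = 0.00802), and Abcb4, Abcb11 (the bile salt export pump) and Slco1a1 fell at 16 h. At 10 h the median of the transport list was -0.51 against -0.19 over all probe sets, and at 16 h the medians of the synthesis and transport lists were -0.36 and -0.64 against -0.39.

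Clock genes were also called between 10 h and 16 h. From 10 h to 16 h, 3 of 16 rose, namely Dbp (3.82 ± 0.67), Nr1d1 (3.71 ± 0.77) and Nr1d2 (2.03 ± 0.35), and 3 fell, namely Nfil3, Cry1 and Clock. Nr1d2 read 4.14, 3.73 and 4.07 at 6 h, 2.00, 1.77, 1.58 and 2.58 at 10 h and 4.35, 3.52 and 4.16 at 16 h, and vehicle replicate 3, where Cyp7a1 was high, read 4.19 against 2.99 and 1.76 on the other vehicle arrays. Of the 3 that rose, Nr1d2 and Nr1d1 were in their 16 h ranges at 6 h. Dbp, at 2.113, 0.885 and 2.437 at 6 h, was below all its 16 h arrays, at 2.618, 2.905 and 3.551. Cyp7a1, at 2.04, 0.61 and 2.09 at 6 h, was also below all its 16 h arrays. From 6 h to 10 h Nr1d2 fell by 2.00 ± 0.35 (adjusted p = 0.00715). The part of these genes, or of the hour of killing, in the Cyp7a1 and Cyp8b1 differences was not tested.

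**Figure D3:**
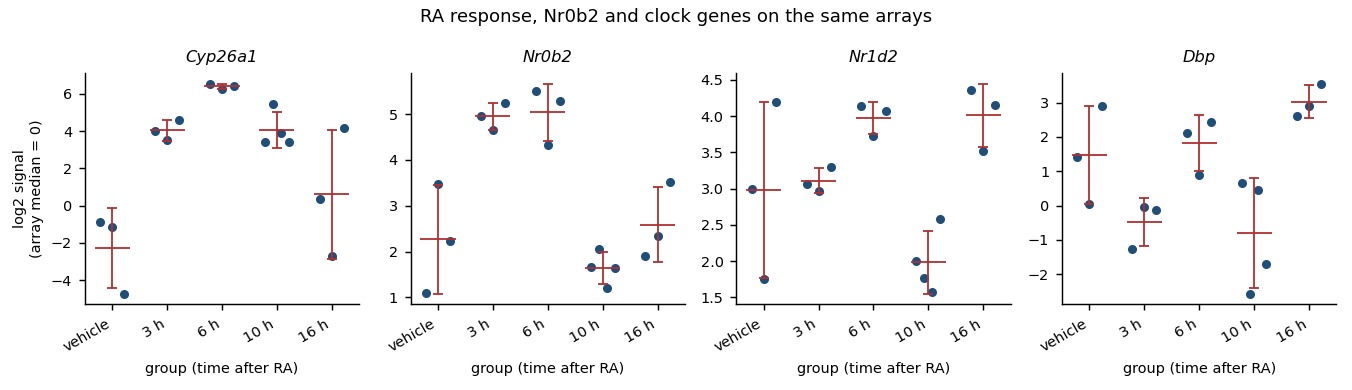
Log2 signal (array median 0) of the RA-inducible gene Cyp26a1, the repressor gene Nr0b2 and the clock genes Nr1d2 and Dbp on the arrays of the RA time course, with the mean ± SD in red. Nr0b2 is between 4.32 and 5.50 at 3 and 6 h and between 1.21 and 2.06 at 10 h.

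The markers of liver cells were present on these arrays. The summed linear signal of 9 hepatocyte markers ran from 3065 to 4213 times the array median in vehicle livers from 3125 to 3970 at 10 h, where none of the 9 was called, and from 3587 to 5168 at 16 h, where Alb was higher and Apob lower. The summed signal of 8 Kupffer cell markers ran from 119 to 149 in vehicle livers, from 75.0 to 126 at 10 h and from 66.8 to 96.3 at 16 h, where 3 of the 8 were called lower. Of 10 periportal markers 1 (Asl) was lower at 10 h, with a list median of -0.56 against -0.19 over all probe sets, and 3 were lower at 16 h. At 16 h, 1 of 9 pericentral, 2 of 10 stellate cell, 1 of 7 sinusoidal endothelial and 1 of 10 pancreatic acinar genes were also lower, 1 stellate cell gene was higher, and none of 6 cholangiocyte genes was called. No hepatocyte or Kupffer cell gene was at the floor on all arrays of any group, and the part of these markers in the results was not tested.

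The diet experiment asked how the vitamin A supply from weaning to 8 weeks of age sets liver transcripts, and in this pathway Cyp8b1 was lower in supplemented than in deficient livers, with marginal and adequate livers between them that did not differ beyond their error (0.05 ± 0.20, adjusted p = 1). It was the only one of the 8 genes called for the trend over the 4 diets and for supplemented against deficient livers, where 0.359% and 0.42% of probe sets were called. None of the 8 was called for deficient against adequate (1.08% of probe sets), marginal against adequate (0%), supplemented against adequate (0.0109%) or marginal against deficient livers (1.69%). With an unadjusted limma p under 0.05 the counts in these 4 comparisons were 1 (Cyp8b1), 0, 1 (Cyp8b1) and 2 (Cyp7a1 and Cyp8b1). The shares above are of adjusted calls and are no measure for these counts. Among 27595 probe sets Cyp8b1 ranked 1287 by p for deficient against adequate and 28 for supplemented against adequate livers. For marginal against deficient livers Cyp8b1 ranked 2006 and Cyp7a1 2175.

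Cyp8b1 read 6.58, 6.73, 7.32, 6.68 and 6.75 in deficient livers and 5.55 and 4.33 in supplemented ones. In the marginal group it ran from 5.87 to 6.53 with a median of 6.23, and in the adequate group from 5.35 to 6.53 with a median of 6.32. All 5 deficient livers were above all marginal, adequate and supplemented ones. The marginal and adequate groups overlapped almost entirely.

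Supplemented livers had 3.29-fold less Cyp8b1 than deficient ones, a change of -1.72 ± 0.32 (adjusted p = 0.00479), and the trend was -0.52 ± 0.10 per step of the diet (adjusted p = 0.00607). The supplemented group has 2 arrays, and without replicate 2 the changes were -1.11 ± 0.39 (adjusted p = 0.495) and -0.34 ± 0.12 (adjusted p = 0.516). Both calls were also lost in the first run alone, the only one with supplemented livers, at -1.78 ± 0.38 (adjusted p = 0.0557) and -0.55 ± 0.12 (adjusted p = 0.0642), and in limma without the intensity trend (adjusted p = 0.121 and 0.145). With the replicate number as a block (replicate block) the adjusted p were 0.679 and 0.719. Deficient livers differed from adequate ones by 0.61 ± 0.22 (adjusted p = 0.227) and marginal from deficient by -0.56 ± 0.21 (adjusted p = 0.192). After quantile normalization both were called, at 0.83 ± 0.19 (adjusted p = 0.0171) and -0.80 ± 0.18 (adjusted p = 0.0152).

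**Figure D4:**
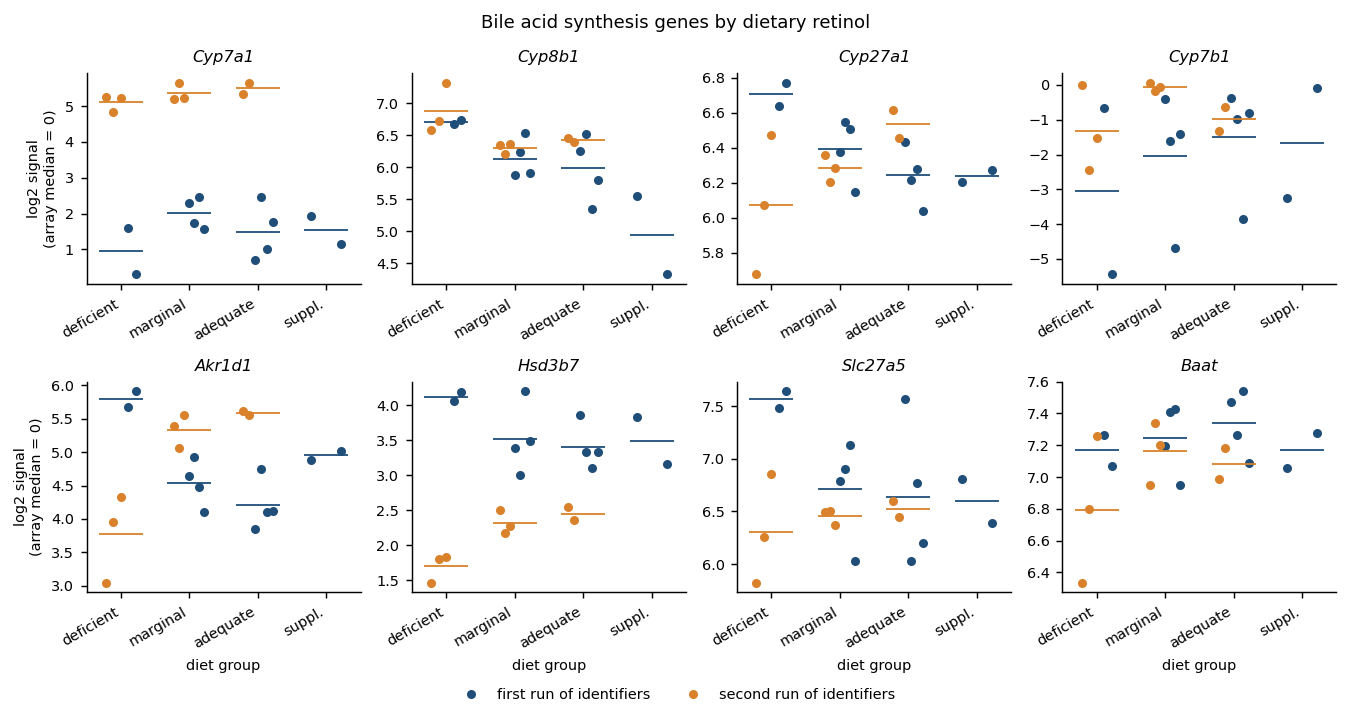
Log2 signal (array median 0) of the 8 genes on each array of the diet experiment, by diet, with blue for the first and orange for the second run of database identifiers and lines for the mean of each. Cyp7a1 is between 0.30 and 2.47 in the first run and between 4.84 and 5.65 in the second, whatever the diet.

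The arrays of the diet experiment fall in 2 separate ranges of the identifiers that the array database gave them, called runs here, of 12 and 8 arrays. The second run held 3 deficient, 3 marginal and 2 adequate livers, the first held 2, 4 and 4 and both supplemented ones, and the fit has a term for the run. That term was called for 13.6% of probe sets. The floor of the arrays lay between -5.71 and -5.30 in the first run and between -4.46 and -3.32 in the second. From 50 to 425 probe sets of an array were at it in the first run and from 65 to 3163 in the second. The part of this in the differences between runs was not tested. What else the runs share, such as a day of killing or of hybridisation, is not given in the labels used here.

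Cyp7a1 differed between the runs and was not called in any comparison of diets. It read 1.59 and 0.30 in the deficient livers of the first run and 5.24, 4.84 and 5.22 in those of the second. In the adequate livers it read 0.70, 2.46, 1.02 and 1.77 in the first run, and the second run gave 5.35 and 5.65. The marginal livers read 2.29, 1.73, 2.47 and 1.57 in the first run, and 5.19, 5.65 and 5.24 came from the second. The runs did not overlap, and the term of the run was 3.79 ± 0.21 (adjusted p = 1.41e-13), a 13.8-fold difference that was called in 25 of 25 alternatives.

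Within the runs the diets were close in Cyp7a1. Deficient minus adequate was -0.54 within the first run, -0.40 within the second, and -0.40 ± 0.27 in the fit (adjusted p = 0.58, 95% interval -0.95 to 0.16). Marginal minus deficient was 0.66 ± 0.26 (adjusted p = 0.205), and supplemented minus adequate -0.01 ± 0.37 (adjusted p = 1, interval -0.76 to 0.73).

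Of 16 clock genes tested, 4 were higher and 3 lower in the second run. The 4 were Dbp (3.08 ± 0.36), Per2 (2.20 ± 0.26), Nr1d2 (0.92 ± 0.19) and Bhlhe41 (3.21 ± 0.55), and the 3 were Bmal1, Clock and Nfil3. Kupffer cell markers differed with the run as well, with 6 of 8 lower. None of 9 hepatocyte markers was called for the run. Their summed linear signal ran from 2038 to 8211 in deficient and from 2780 to 4750 in adequate livers. Of the other marker lists, 3 of 9 pericentral genes were lower, 2 of 10 periportal genes higher and 3 lower, 2 of 10 stellate cell genes higher, 1 of 7 sinusoidal endothelial genes lower, 0 of 6 cholangiocyte genes called and 1 of 8 pancreatic acinar genes lower. Whether these differences have a part in that of Cyp7a1 was not tested.

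Hsd3b7, the second enzyme of the classical route, was the other member called for the run, with a change of -1.47 ± 0.19 (adjusted p = 2.06e-06) that was called in 25 of 25 alternatives. It read 4.06 and 4.19 in the deficient livers of the first run and 1.46, 1.80 and 1.83 in those of the second, which were the lowest of the experiment. The second Akr1d1 probe set also differed by run (0.51 ± 0.16, adjusted p = 0.0305), while the first did not pass the test (0.19 ± 0.30, adjusted p = 0.754).

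Akr1d1 differed between deficient and adequate livers in opposite directions in the 2 runs. In the first run it read 5.67 and 5.91 in deficient and 3.86, 4.75, 4.11 and 4.12 in adequate livers. In the second it read 3.04, 3.96 and 4.32 in deficient and 5.62 and 5.55 in adequate livers. The groups did not overlap within either run, and the sign turned between them. Array quality differed. Deficient replicates 5 (first run), 1 and 2 (second run) had median correlations with the other diet arrays of 0.786, 0.793 and 0.817. Adequate replicate 5 (first run) had 0.806, against up to 0.861 in the experiment. The 3' minus 5' log2 signal of Gapdh, a measure of RNA quality, was 0.92 and 1.37 in deficient and adequate replicate 5. On the other diet arrays it was at most 0.541.

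The difference of Akr1d1 between deficient and adequate livers was 1.58 within the first run and -1.81 within the second, and the test of the change between runs gave -3.40 ± 0.41 (adjusted p = 1.28e-04). Only 15 of 27595 probe sets, or 0.0544%, were called in that test, and Akr1d1 was the only one of the 8 genes. The second Akr1d1 probe set gave 0.08 and -0.65, with a difference of -0.73 ± 0.40 (adjusted p = 0.483). The pooled change, -0.14 ± 0.38 (adjusted p = 0.922), averages these opposite values. Hsd3b7 turned in the same way, 0.72 and -0.75, and was not called (adjusted p = 0.226).

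Cyp27a1 also changed sign between the runs for deficient minus adequate, at 0.46 and -0.46, with a difference of -0.93 ± 0.35 (unadjusted p = 0.012, adjusted p = 0.323 in limma), and Slc27a5 did so at 0.92 and -0.21, by -1.14 ± 0.50 (unadjusted p = 0.0312, adjusted p = 0.393 in limma). Neither was called. Cyp27a1 lay between 5.67 and 6.77 and Baat between 6.33 and 7.54 over the 20 arrays, and the lowest array of each was deficient replicate 1. Pooled over the runs, which averages these values, Slc27a5 differed by 0.34 ± 0.27 between deficient and adequate livers (adjusted p = 0.637). Cyp7b1, near the dim end, ran from -5.45 to 0.06, and its deficient minus adequate interval of -2.88 to 0.75 leaves room for changes of several fold.

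Around the pathway, the FXR gene Nr1h4 was lower in deficient livers, where it read 4.38 and 3.07 (first run) and 3.31, 2.40 and 3.48 (second run). The adequate livers read from 4.47 to 5.00 in the first run and 4.36 and 4.72 in the second. Each deficient liver was below all adequate livers of its run. The one at 4.38 lay above the lowest adequate liver of the other run. The change was -1.23 ± 0.22 (adjusted p = 0.00158). The values 3.07, 3.31 and 2.40 came from deficient replicates 5, 1 and 2, whose low correlations with the other diet arrays are given above. Nr0b2 was not called (-0.30 ± 0.27, adjusted p = 0.695). None of 14 other synthesis genes was called between deficient and adequate livers, and of 14 transport genes Abcg5 and Abcb4 rose and Slco1b2 fell. Between marginal and deficient livers Cyp39a1 was higher by 0.83 ± 0.22 (adjusted p = 0.0458).

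The intravenous experiment asked what RA does within 90 min in rats that were not deficient, and none of the 8 genes was called at 30, 60 or 90 min, or over the 3 times together, against 0.0879%, 0.387%, 0.505% and 0.29% of all probe sets. With an unadjusted limma p under 0.05 the counts were 2, 4, 1 and 2 of 8, made up of Cyp7b1 and Hsd3b7 with Cyp7a1 and Akr1d1 at 60 min, and Cyp7b1 alone at 90 min. The shares above are of adjusted calls and are no measure for these counts. Among 22763 probe sets, Akr1d1 ranked 2008 by limma p at 60 min (unadjusted p = 0.0419). Cyp7b1 ranked 2362 at 90 min (unadjusted p = 0.0477). Cyp26a1, the RA-degrading enzyme, rose on the same arrays by 5.43 ± 0.56 at 60 min (adjusted p = 8.17e-04) and 5.61 ± 0.56 at 90 min. The change of Cyp26a1 at 30 min, 3.05 ± 0.56, was not called (adjusted p = 0.0693).

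**Figure D5:**
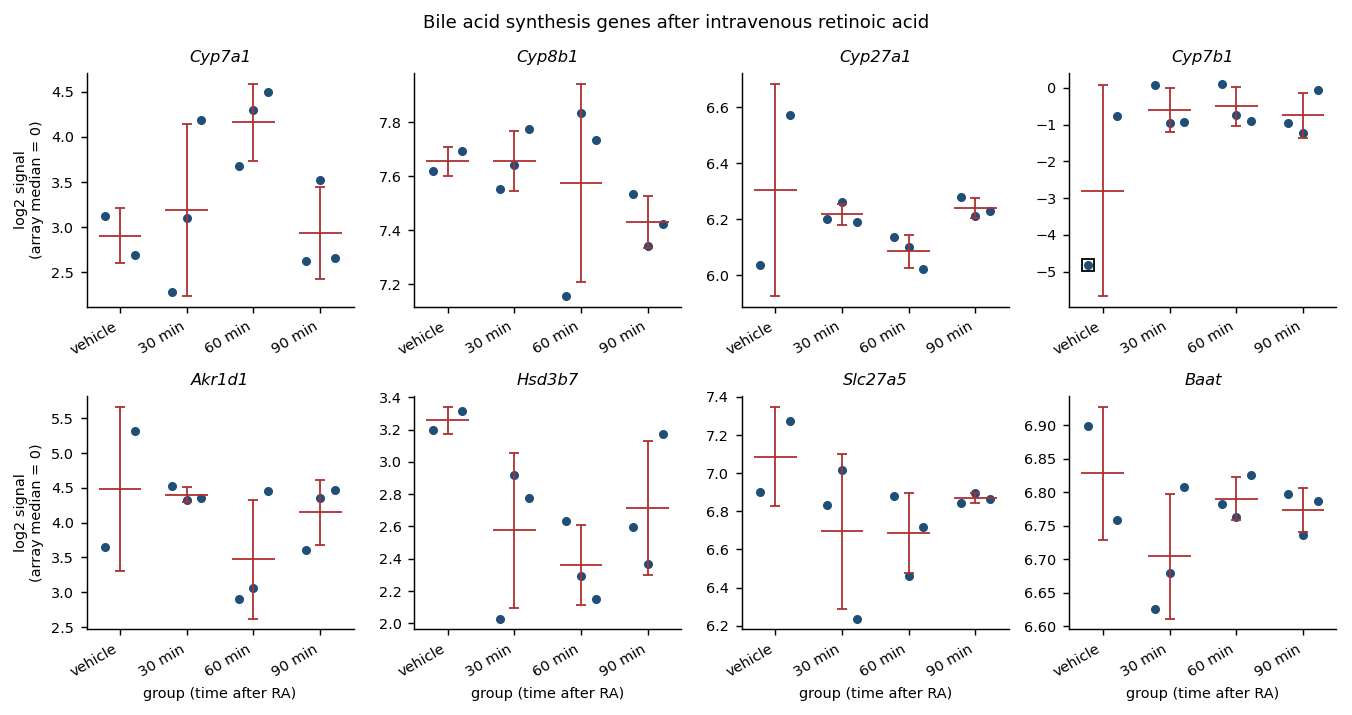
Log2 signal (array median 0) of the 8 genes on each array of the intravenous experiment, by group, with points for arrays and red bars for the mean ± SD (a black square marks a value at the floor of its array). Cyp8b1 lies between 7.16 and 7.84 in all groups, and Cyp7a1 at 60 min between 3.68 and 4.50.

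Cyp8b1 stayed near its level. It read 7.62 and 7.69 with vehicle, 7.55, 7.64 and 7.77 at 30 min, 7.16, 7.84 and 7.74 at 60 min, and 7.53, 7.34 and 7.42 at 90 min. The 3 arrays at 90 min were below both vehicle arrays by a small amount, -0.22 ± 0.17 (adjusted p = 0.689, 95% interval -0.59 to 0.15). Nr0b2 was above vehicle in this experiment, by 2.35 ± 0.33 at 60 min (adjusted p = 0.00624) and 1.96 ± 0.33 at 90 min (adjusted p = 0.0141). Its part in the Cyp8b1 values was not tested.

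Cyp7a1 read 3.12 and 2.69 with vehicle, 2.28, 3.11 and 4.18 at 30 min, 3.68, 4.30 and 4.50 at 60 min, and 2.62, 3.53 and 2.65 at 90 min. All 3 arrays at 60 min were above both vehicle arrays, by 1.25 ± 0.42, which did not pass the test (adjusted p = 0.309). At the same time 4 of 15 clock genes were called higher (Per1, Per2, Bhlhe40 and Dbp) and 2 lower (Npas2 and Nfil3), and their part in this difference was not tested.

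Hsd3b7 read 3.19 and 3.32 with vehicle, 2.03, 2.92 and 2.78 at 30 min, 2.64, 2.29 and 2.15 at 60 min, and 2.59, 2.37 and 3.17 at 90 min. All 9 treated livers were below both controls, and the mean change of -0.71 ± 0.23 was not called (adjusted p = 0.267). The second Akr1d1 probe set was also below both controls in all 9 (-0.59 ± 0.18, adjusted p = 0.248), while the first gave -0.48 ± 0.39 (adjusted p = 0.721) with vehicle arrays at 3.65 and 5.32. Cyp7b1 had vehicle replicate 1 at the floor of its array, so its fitted rise of 2.18 ± 0.81 (adjusted p = 0.353) has no measured control level on that array. Cyp27a1 ran from 6.02 to 6.57, Slc27a5 from 6.24 to 7.27 and Baat from 6.63 to 6.90.

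Across all 47 arrays, taken as deviations from the mean of the experiment (and of the run in the diet experiment), the genes of the pathway fell into different company. The 3 genes most like Cyp8b1 among 11652 were Mfsd2a (Pearson r 0.87), a lysolipid transporter gene, Polg2 (0.77) and Cldn3 (0.75). Mfsd2a read 3.07, 3.64 and 4.37 in vehicle livers, 2.64, 3.07 and 2.53 at 6 h, 1.27, 0.96, 1.28 and 1.23 at 10 h, and 2.62, 2.12 and 3.22 at 16 h. Those most like Cyp7a1 were the clock gene Nr1d2 (0.65), Hsd17b2 (0.65) and Dspp (0.64). Cyp7a1 and Cyp8b1 correlated at 0.57.

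The nearest genes of the other 6 were as follows. Cyp27a1 was most like Atp5f1a (0.82), Ndufv1 (0.81) and Clu (0.79), and Akr1d1 was most like Echs1 (0.74), Cyp27a1 (0.73) and Bst2 (0.71). Slc27a5 was most like Atp5mc3, Ndufv1 and Grhpr (0.76 each), Hsd3b7 like Tomm22 (0.76), Cox8a (0.75) and Nme2 (0.74), and Baat like Erp44 (0.82), Pxmp2 (0.81) and Bhmt2 (0.80). Cyp7b1 was most like Srgn, Tceanc2 and Crip1 (0.61 each). These are descriptions over arrays that share treatments and array quality, and they carry no test.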

How the data were processed

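The authors deposited log2 signal values for 31099 probe sets on 47 arrays, made with GCOS per the submitters' processing notes (version not given in the sources used here), with each array's median at 0 and a floor that its lowest values share. GEO's platform annotation names 1 gene for 20832 probe sets, several for 436 and none for 9831, and 57 control probe sets were left out. A probe set entered the tests of an experiment when 2 or more of its arrays had it over their 40th percentile (27595, 28869 and 22763 in the diet, RA and intravenous experiments). Each experiment was fitted with limma 3.58.1 in R 4.3.3 (group means, eBayes with an intensity trend, Benjamini-Hochberg), with the run of identifiers as a covariate in the diet experiment. The scripts were tested on simulated data. The number of arrays limits the precision. Labels state separate rats but no separate hybridisation days.

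The genes and lists were chosen with earlier results of these data known. The text names the 8 genes in every comparison, Nr1h4, Nr0b2 and Cyp26a1, up to 4 called genes per list and comparison, and the 3 genes most like each member. Other genes and arrays given beside a result were chosen after their values were seen. Alternatives were quantile normalization, no filter, no trend, array weights, an offset of 0.25, the mean over probe sets, a replicate block, each array left out, arrays that stood apart left out, and other treatments of the run. The comparisons of neighbouring times and the term of the run were added after seeing the data.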

Additional observations from a re-analysis of the deposited data

Results flagged for a closer look

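Within groups of 4 to 10 arrays, 36 were tested for a value far from its own group with Dixon's criterion, of which chance marks about 1 in 20. Cyp8b1 read 7.32 in deficient replicate 3, against 6.75 for the next. Cyp7b1 was low in marginal replicate 6 (-4.69), adequate replicate 5 (-3.86) and 10 h replicate 2 (-3.11). The second Akr1d1 probe set read 3.08 in marginal replicate 7.

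Deficient minus adequate livers differed between the runs of identifiers in Akr1d1, at 1.58 and -1.81, by -3.40 in the test of that difference. Hsd3b7 moved in opposite directions as well, at 0.72 and -0.75, with every deficient array of a run on one side of the adequate ones, and the test of the difference did not call it (adjusted p = 0.226).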

How the results depend on the processing

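Of the values for single genes under each alternative, 2545 kept their direction and side of the threshold, 221 changed sign without a call, 35 lost a call, 20 gained one and 3 reversed. The 3 were Akr1d1 in the first run alone (1.58 for deficient minus adequate, -1.26 for marginal minus deficient) and Cyp27a1 for the run under quantile normalization (0.30). The Cyp8b1 calls at 10 h and from 10 h to 16 h held under all alternatives run.

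Counts of the 8 genes called changed as follows. Under quantile normalization they were 1 for deficient minus adequate and for marginal minus deficient, 0 at 16 h, 1 from 3 h to 16 h and 4 for the run. Without the trend they were 0 for supplemented minus deficient, the diet trend, 6 h, 16 h, the mean over RA times, 3 h to 16 h and 6 h to 10 h, and 1 at 10 h and from 10 h to 16 h. Over all probe sets that setting called 5 at 6 h, 2 at 10 h, 40 at 16 h and 0 for the mean. It called 88 from 3 h to 16 h, 6 from 6 h to 10 h and 45 from 10 h to 16 h. The mean over probe sets gave 1 at 10 h. The first run alone gave 1 for deficient minus adequate and for marginal minus deficient and 0 for supplemented minus deficient and the trend, and the second run alone gave 1 for the first pair. Without 16 h replicates 1 and 2 they were 0 at 16 h and from 3 h to 16 h. Leaving out 1 array gave 0 to 1 for supplemented minus deficient, the diet trend, 3 h and 6 h, 1 to 2 at 10 h, 1 to 5 at 16 h, and 2 to 5 from 3 h to 16 h and from 10 h to 16 h. The same fits called 19 to 382 of all probe sets at 10 h and 215 to 4498 at 16 h. They called 727 to 5044 from 3 h to 16 h and 76 to 2370 from 10 h to 16 h. The highest totals of the last 3 came without 16 h replicate 3, so these ranges are not particular to the 8 genes.

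Replicate numbers did not pair the arrays: same-numbered arrays had a median correlation of deviations of 0.027 (diet, 5 of 22 pairs over 0.1), 0.002 (RA, 0 of 30) and -0.003 (intravenous, 0 of 15). With the replicate block, the count was 0 for supplemented minus deficient and the diet trend and 2 from 6 h to 10 h.

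Counts over all probe sets moved more. They ran from 61 to 1493 (299 as reported) for deficient minus adequate, 63 to 2435 (1.69% of probe sets as reported) for marginal minus deficient, 15 to 430 (116) for supplemented minus deficient, 13 to 323 (99) for the trend, 0 to 63 (22) at 3 h, 5 to 272 (58) at 6 h, 2 to 1296 (141) at 10 h, 40 to 4498 (1765) at 16 h, 0 to 1216 (49) for the mean of RA times, 88 to 5044 (2513) from 3 h to 16 h, 1 to 37 (6) from 3 h to 6 h, 6 to 140 (39) from 6 h to 10 h and 45 to 2370 (233) from 10 h to 16 h. In the intravenous experiment they ran from 1 to 36 (20), 2 to 119 (88) and 28 to 159 (115), and 25 to 131 (66) for the mean. The cause of these changes was not tested. Dim values limit Cyp7b1, and Cyp7a1 at 10 h.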
